A study of Mus musculus with 3 samples.

Results

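The integrin and laminin subunit genes were the 35 mouse genes whose symbols name an integrin α or β subunit (25 genes) or a laminin α, β or γ chain (10 genes) in a given list of symbols. Non-control probes carrying those symbols in the design files were taken, which gave 75 probes, against 25076 gene labels on the array in all. Cy3-labelled total RNA of each of 3 cell samples was measured on a single-channel Agilent whole mouse genome array, 1 array per group. The groups were p53-null mouse embryonic fibroblasts (MEF), embryonic stem (ES) cells, and MEF with wild-type p53 according to the series design. All 3 samples carried Nanog-GFP, a fluorescent reporter of the pluripotency gene Nanog. The labels give no treatment, and nothing on how p53 was lost, on embryo age or on pooling. With 1 array per group there was no replicate, so no test was possible and each difference describes these arrays alone.

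Integrins are heterodimers of an α and a β subunit that span the plasma membrane, bind matrix proteins or other cells outside and connect to the actin or keratin cytoskeleton inside. Laminins are cross-shaped trimers of an α, a β and a γ chain that form the sheet of basement membranes, and integrins α3β1, α6β1, α6β4 and α7β1 are their main integrin receptors. Fibroblasts are known for collagen and fibronectin receptors, whereas pluripotent cells in culture are known to attach to laminin through α6β1.

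The p53 gene was checked first. Trp53 gave 56.3 ± 3.85 units in p53-null MEF, 4902 ± 143 in ES cells and 1304 ± 29.8 in MEF (SD of 10 spots of 1 probe on 1 array). A second Trp53 probe, at another position, gave 260, 304 and 572 units in the same order, so its signal was lower in p53-null MEF by a smaller factor. Of 11 fibroblast markers, 11 were well above background on both MEF arrays and 10 in ES cells, where their summed signal was 6991 units against 473447 in p53-null MEF and 501975 in MEF. Of 9 ES cell markers, 9 were well above background in ES cells, 2 in p53-null MEF and 4 in MEF. The p53-null MEF array lay on a slide of its own and the other arrays shared 1 slide. Against MEF, p53-null MEF had at least 479-fold more Xist signal and at least 96.9-fold less of the Y-linked Eif2s3y, so genotype, sex and slide cannot be told apart. The 75th percentile of spot signals, used for scaling, was 1040 units in p53-null MEF, 834 in ES cells and 829 in MEF.

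Signals below are processed Cy3 intensities in scanner units before scaling, and differences are in log2 units after subtracting each array's 75th percentile. The ± value beside a difference is the scanner software's error model over both arrays, which covers technical error only. A probe that 1 array did not mark as well above background gives a bound, written "at least". That bound sets the bright signal against the lowest well-marked signal of the dim array (16.0 units in p53-null MEF, 10.1 in ES cells, 12.4 in MEF) or against the dim probe's own signal where that was higher. In the latter case, as for Itga1, Itga4, Itga11 and Lama2 in ES cells and Itgb2 in p53-null MEF, the value equals the difference of the signals themselves. In bulk RNA, fewer cells of a type and less RNA per cell cannot be told apart.

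Of the 35 genes, 31 were well above background on at least 1 array and 20 on all 3. The count was 29 in MEF, 25 in p53-null MEF and 25 in ES cells. Of all gene labels, 59.9% were so marked in MEF, 58.9% in p53-null MEF and 63.1% in ES cells. Those marked in MEF but not in p53-null MEF were dim in MEF: Itgb2 (35.1 units), Lama3 (18.7), Lamb3 (17.9) and Lama1 (16.6). Itga2 and Itga10 (collagen receptor subunits), Itgb6 (an epithelial partner of αv) and Itgax (a dendritic cell and macrophage subunit) were not well above background anywhere. Because genes enter through the array where they are bright, the counts below cover the genes with a value, not all 35.

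In ES cells against MEF, 16 of 31 genes with a value were lower by 2-fold or more, 7 were higher by as much and 8 lay between. Over all gene labels with a value, 27.8% were lower and 32.3% higher by 2-fold or more. The median difference of the members was -1.58, beside 0.18 for all labels. At the probe standing for each gene, the lower ones were the common β1 chain, both detected collagen receptor subunits, all 7 detected subunits of RGD receptors, Itga4, Itga7 and 4 laminin chains (Lama2, Lama4, Lamb1 and Lamb2). Of these, Itgb3 and Itga1 had another detected probe that was higher in ES cells, by 0.52 and 0.55. The higher genes were Itga9, 4 subunits best known from leukocytes (Itgae, Itgal, Itgam and Itgb7), and the laminin α chains Lama1 and Lama3.

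In p53-null MEF against MEF, 12 of 29 genes with a value were lower by 2-fold or more, 3 were higher by as much (Itga4, Itgb3 and Itgb8) and 14 lay between. Over all gene labels 16.8% were lower and 18.0% higher by that measure. The median was -0.58, beside 0.02 for all labels. The lower genes were Itgb4, Itga1, Itgb7, Lama4, Itga2b, Itgb2, Itga9, Itgal, Lama2, Itga3, Lamb2 and Itga11. This count was 5 after normexp background correction and 1 when arrays were scaled on spike-in probes, a scaling that moved the median of all labels by 2.05. Under spike-in scaling 8 of the 12 genes (Itga2b, Itga3, Itga9, Itga11, Itgal, Lama2, Lama4 and Lamb2) had the opposite sign, so the statements below on lower genes in p53-null MEF are relative to the bulk of the array. Only Itga4 (higher) and Itgb4 (lower) stayed at least 2-fold apart in this comparison under every one of the 13 alternative settings. In ES cells against MEF the same held for 4 higher genes (Itgae, Itgal, Itgb7 and Lama1) and 12 lower ones, considering the settings that gave a value.

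In ES cells against p53-null MEF, 9 of 29 genes with a value were higher by 2-fold or more and 15 lower by as much. The shares over all labels were 26.6% higher and 24.4% lower. The median was -1.32, beside 0.16 for all labels. The 3 comparisons share arrays, so each set of values stands on its own and their likeness is no result.

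**Figure D1:**
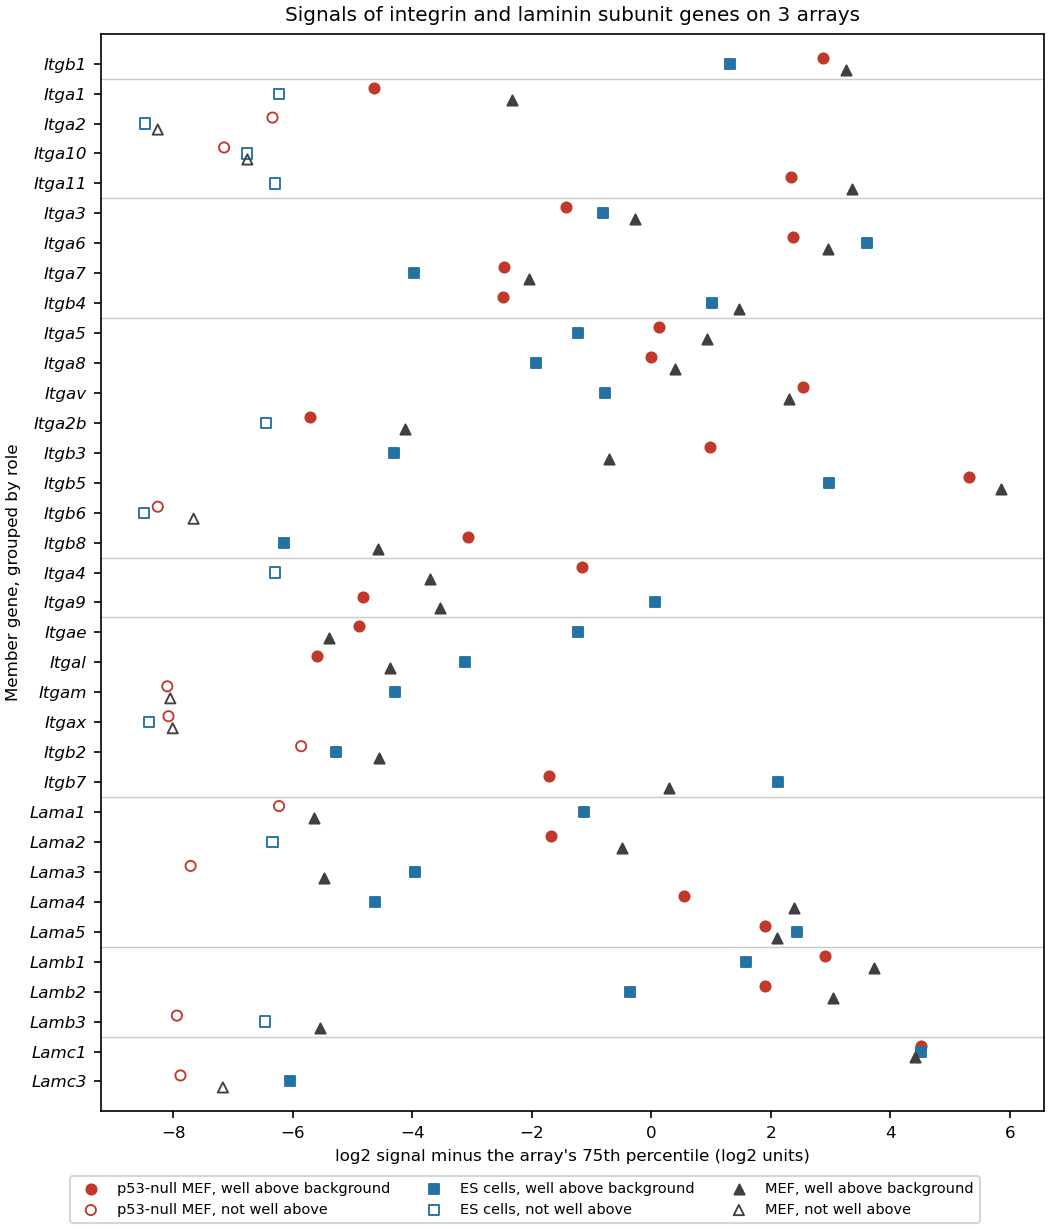
Scaled log2 signal (x axis, log2 units relative to each array's 75th percentile) of the probe standing for each of the 35 genes, in p53-null MEF (red circles), ES cells (blue squares) and MEF (dark triangles), grouped by role. Filled symbols were well above background and open ones were not, and signals of different genes come from different probes and are not comparable. ES cells lie at the low end for Itga11, Lama2 and Lama4, and at the high end for Itga9, Itgae, Itgb7 and Lama1.

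**Figure D2:**
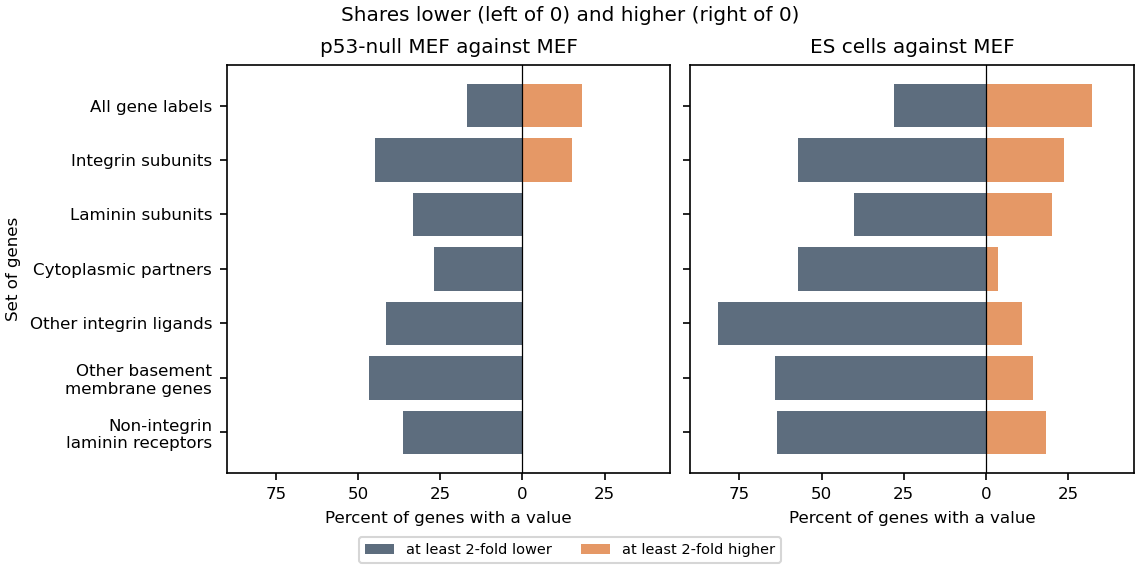
Percent of genes with a value that were at least 2-fold lower (left of 0) or higher (right of 0) in p53-null MEF against MEF and in ES cells against MEF, for all gene labels, the integrin and laminin subunits, and 4 lists of related genes. In ES cells 57.1% of integrin subunits and 40.0% of laminin subunits were lower, beside 27.8% of all labels.

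Itgb1 encodes the β1 chain, the partner of most α subunits. It was spotted 10 times per array and measured 7661 ± 118 units in p53-null MEF, 2085 ± 78.8 in ES cells and 7890 ± 329 in MEF (SD between spots). The MEF arrays were alike and ES cells low, by -1.93 ± 0.20 against MEF (3.81-fold), while p53-null MEF differed from MEF by -0.37 ± 0.20. A second Itgb1 probe gave -1.97 ± 0.20 and -0.11 ± 0.20 for these comparisons. So the β1 transcript was well above background on every array, and a β1 pair below was detected wherever its α subunit was.

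Among the collagen receptor α subunits, Itga11 showed the widest difference of any member between ES cells and MEF. This subunit, which binds fibrillar collagen on mesenchymal cells, gave 5264 units in p53-null MEF, 10.6 in ES cells and 8445 in MEF. It was high on both fibroblast arrays and not well above background in ES cells, at least 805-fold (9.65 log2 units) below MEF. Its probe lies at chr9:62581866-62581925 (mm8, plus strand) and begins as follows, shown because this single 60-base probe carries the result.
Itga11 probe: gtttcatctgaacaatgtcatctgttcccc
In p53-null MEF it was lower than in MEF by 2.01-fold (-1.01 ± 0.20), and it was 0.96 higher when scaled on spike-ins. Itga1, a receptor for basement membrane collagen, gave 41.7 units in p53-null MEF, 11.1 in ES cells and 164 in MEF. At this probe it was highest in MEF, 4.92-fold above p53-null MEF (-2.30 ± 0.25) and at least 14.9-fold above ES cells. A second Itga1 probe differed by -1.64 ± 0.24 in p53-null MEF, while another, 41.3 units in ES cells and 28.0 in MEF, gave -0.64 ± 0.34 there and 0.55 ± 0.27 in ES cells. A dim probe that only some of the array files name for Itga1 gave 35.65 units in p53-null MEF, 28.6 in ES cells and 15.2 in MEF. Its differences from MEF were 0.90 ± 0.35 in p53-null MEF and 0.90 ± 0.34 in ES cells. The probes of Itga1 thus disagreed on ES cells and, where that dim probe is read, on p53-null MEF too.

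Among the laminin receptor subunits, Itgb4 had the largest measured difference of all members between the fibroblast arrays. The β4 chain pairs with α6 alone and links laminin to keratin filaments in the hemidesmosomes of epithelia, and it is also known from Schwann cells. Its 2 brightest probes carry the result, and their starts are shown because they overlap and are therefore not independent measurements. Of their 60 bases 50 are shared, and capitals mark the 20 shared bases within the part printed (mm8, plus strand, chr11:115824323-115824382 for the first and chr11:115824333-115824392 for the second).
Itgb4 probe 1: gtccaggaacCATAAAGTGGGTAGAGGTGA
Itgb4 probe 2: CATAAAGTGGGTAGAGGTGAtacaaggtct
The brighter probe, the second, gave 186 units in p53-null MEF, 1696 in ES cells and 2277 in MEF. Only p53-null MEF were low, 15.4-fold below MEF (-3.95 ± 0.21), whereas ES cells differed from MEF by -0.43 ± 0.20. The overlapping probe gave -3.81 ± 0.21 and -0.42 ± 0.20. Over the alternative settings the p53-null difference ranged from -3.99 to -1.97. Its remaining probe was not well above background on any array.

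Markers of glia and Schwann cells are given beside Itgb4. Of 8 such genes, 6 had a value and all 6 lay at least 2-fold below MEF in the p53-null cells, with a median of -2.39. Over all gene labels 16.8% were lower by that measure. These values are relative to the bulk of the array, since spike-in scaling moved the median of all labels by 2.05 in this comparison. Ngfr, a neurotrophin receptor of neural crest and Schwann cells, gave 19.8 units in p53-null MEF, 2049 in ES cells and 949 in MEF. Their summed signal was 706 units in p53-null MEF, 4753 in ES cells and 5095 in MEF, and the glial filament gene Gfap was not well above background on any array. Of the epithelial list, the basal keratin Krt14 gave 26.9 units in p53-null MEF, 36.0 in ES cells and 416 in MEF, but 4 of its 10 genes were well above background in each kind of MEF and 9 in ES cells, with summed signals of 7744, 3952 and 39321 units in p53-null MEF, MEF and ES cells. The part of such cells in the Itgb4 difference was not tested.

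Itga6, the α partner of β4 and, with β1, a main laminin receptor of pluripotent cells, gave 5370 units in p53-null MEF, 10167 in ES cells and 6418 in MEF. It was highest in ES cells, 1.57-fold above MEF (0.65 ± 0.20) and 2.36-fold above p53-null MEF, although spike-in scaling turned the latter to -0.46. A second probe gave 0.47 ± 0.20 against MEF. A dimmer probe stood apart with 80.4 units in p53-null MEF, 17.5 in ES cells and 5.72 in MEF, where it was not well above background. Itga3, which binds laminins with the α3 or α5 chain, gave 388 units in p53-null MEF, 474 in ES cells and 684 in MEF. It was lower in p53-null MEF by 2.21-fold (-1.15 ± 0.20; 0.83 higher with spike-in scaling), and all 3 of its probes lay between -1.27 and -1.15. Itga7, the laminin receptor subunit best known from skeletal muscle, gave 188 units in p53-null MEF, 52.8 in ES cells and 201 in MEF, so ES cells were 3.84-fold below MEF (-1.94 ± 0.22). Of 10 skeletal muscle markers, 7 were well above background in p53-null MEF, 6 in ES cells and 7 in MEF, with summed signals of 3867, 1186 and 7120 units, and their part in the Itga7 difference was not tested. At the probe standing for each gene, Itga7 alone of the 4 laminin receptor subunits was at least 2-fold below MEF in ES cells. A dim Itga3 probe, with 23.3 units in ES cells and 51.0 in MEF, gave -1.14 ± 0.27 there. The other Itga3 probes gave -0.57 and -0.54. A difference between this class and the others was not tested.

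RGD receptors bind the Arg-Gly-Asp motif of fibronectin, vitronectin and other matrix proteins, and all 7 of their detected subunits lay at least 2-fold below MEF in ES cells at the probe standing for the gene, though for Itgb3 the other probe gave 0.52. Itga5, the α chain of the classical fibronectin receptor, gave 1134 units in p53-null MEF, 357 in ES cells and 1578 in MEF, a difference of -2.15 ± 0.20 for ES cells (4.45-fold). Itgav, the αv chain that pairs with 5 different β subunits, gave 6016 units in p53-null MEF, 486 in ES cells and 4111 in MEF. ES cells were 8.50-fold below MEF (-3.09 ± 0.20), and p53-null MEF differed from MEF by 0.22 ± 0.20. A second Itgav probe gave -3.46 ± 0.29 and 0.69 ± 0.21. A dim probe that only some of the array files name for Itgav, with 122 units in p53-null MEF, 16.0 in ES cells and 17.0 in MEF, gave -0.10 ± 0.42 and 2.52 ± 0.35. Itgb5, an αv partner for vitronectin, gave 41206 units in p53-null MEF, 6511 in ES cells and 47964 in MEF. It too was low in ES cells alone, 7.41-fold below MEF (-2.89 ± 0.20). Itga8, the nephronectin receptor subunit of mesenchyme and smooth muscle, gave 1032 units in p53-null MEF, 219 in ES cells and 1090 in MEF, or -2.32 ± 0.20 in ES cells. All 8 smooth muscle markers lay at least 2-fold below MEF in ES cells as well, with summed signals of 564577 units in p53-null MEF, 12441 in ES cells and 415296 in MEF, and their part in this was not tested.

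Itgb3, the other αv partner and the β chain of the platelet fibrinogen receptor, had probes that disagreed. Their starts are shown because the sign of the ES cell difference depends on which is read (mm8, plus strand, chr11:104483266-104483336 for the first and chr11:104486448-104486507 for the second). The letters printed share no run of 10 or more bases.
Itgb3 probe 1: tgggactctctgccattatgtttacagagg
Itgb3 probe 2: ccacagcaacatcagagtctttgtccattt
The first gave 400 units in p53-null MEF, 395 in ES cells and 273 in MEF, with differences from MEF of 0.22 ± 0.21 and 0.52 ± 0.20. The second, which stood for the gene, gave 2062 units in p53-null MEF, 42.1 in ES cells and 508 in MEF. At this probe p53-null MEF were 3.24-fold above MEF (1.69 ± 0.20) and ES cells 12.1-fold below (-3.60 ± 0.22). The choice between them was close, since quantile normalization made the first the brighter on average and turned the ES cell difference to 0.50. The Itgb3 transcript was therefore detected on all arrays at both probes, but its direction in ES cells was not settled by these data.

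Itga2b, the platelet partner of β3, gave 19.9 units in p53-null MEF, 9.54 in ES cells (not well above background) and 47.6 in MEF. It was lower in p53-null MEF by 3.01-fold (-1.59 ± 0.34), and 0.38 higher with spike-in scaling. Of 7 megakaryocyte and platelet markers on the array, 3 were well above background in p53-null MEF, 2 in ES cells and 2 in MEF, with summed signals of 117, 58.1 and 159 units. Gp1bb, a chain of the platelet receptor for von Willebrand factor, gave 28.2 units in p53-null MEF and 94.1 in MEF, and the platelet chemokine gene Pf4 gave 28.7 and 43.9, so both lay below MEF, as Itga2b did. Gp1ba, another chain of that receptor, gave 40.9 units in p53-null MEF and was not well above background in ES cells or MEF. Gp9 and Gp6, which define that lineage, were not well above background on any array, and a part of such cells was not tested. Itgb8, the αv partner known for activating latent TGF-β, gave 124 units in p53-null MEF, 11.7 in ES cells and 34.96 in MEF. That made p53-null MEF the highest, at 1.50 ± 0.23 above MEF (2.83-fold). A second Itgb8 probe gave 75.3 units in p53-null MEF and 55.5 in MEF, a difference of 0.11 ± 0.23. A probe that only some of the array files name for Itgb8 gave 188 units in p53-null MEF and 113 in MEF, or 0.41 ± 0.21. The 2-fold excess of Itgb8 thus rested on 1 probe, and neither of these others reached it.

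**Figure D3:**
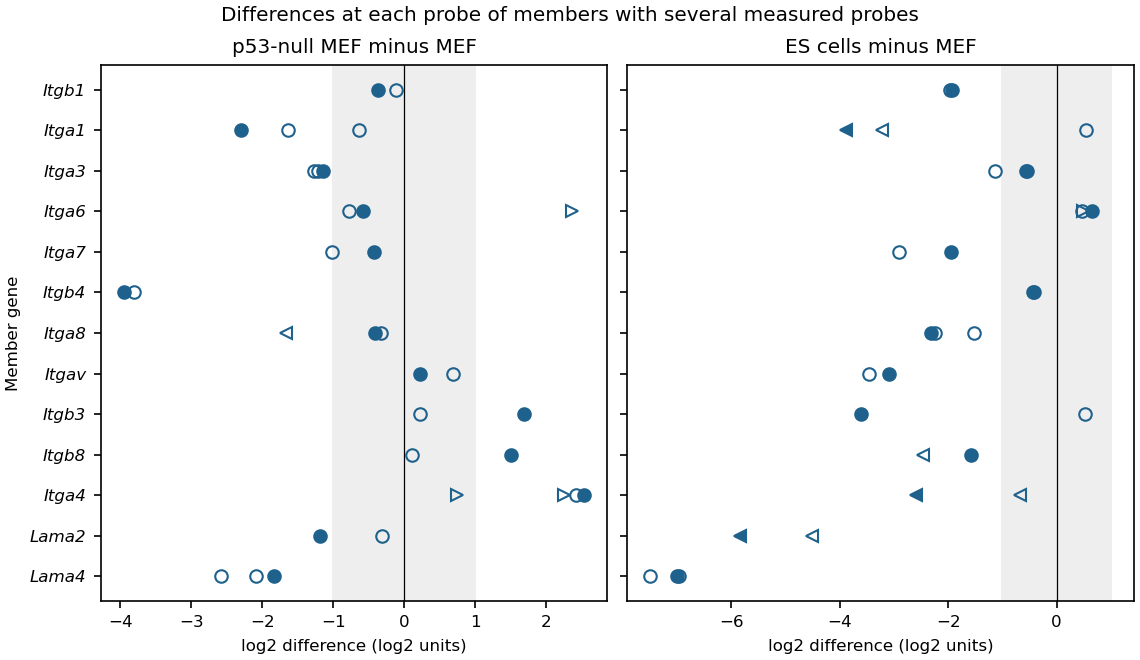
Log2 difference from MEF (x axis, log2 units) at each detected probe of the members with several such probes, for p53-null MEF and for ES cells. Filled symbols mark the probe standing for the gene, open symbols its other probes, triangles bounds, and the grey band differences under 2-fold. The probes of Itgb4 and Itgb1 lie close together for both, and those of Itga3 for p53-null MEF. In ES cells the probes of Itga3 run from -1.14 to -0.54, and those of Itgb3 lie on both sides of 0, at -3.60 and 0.52.

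Subunits α4 and α9, close relatives that bind VCAM1, fibronectin splice forms and tenascin C, took opposite positions. Itga4 gave 465 units in p53-null MEF, 10.6 in ES cells and 63.6 in MEF. It was highest in p53-null MEF, 5.82-fold above MEF (2.54 ± 0.21), and not well above background in ES cells, at least 6.04-fold below MEF. A second Itga4 probe gave 2.42 ± 0.33 in p53-null MEF against MEF, and another, detected in p53-null MEF alone, at least 2.26. The start of the brightest probe, at chr2:79131372-79131431 (mm8, plus strand), is shown because this was the member with the largest measured excess in p53-null MEF.
Itga4 probe: aacttcttcaagctgatatgggcgttgaga
Over the alternative settings this excess ranged from 1.67 to 4.51. Itga9 gave 36.9 units in p53-null MEF, 869 in ES cells and 71.0 in MEF. Here ES cells were highest, 12.2-fold above MEF (3.60 ± 0.21), with p53-null MEF the lowest at -1.27 ± 0.25 (0.70 with spike-in scaling). A probe that carries another name in the array files, but that RefSeq ties to Itga9, gave 210.5 units in p53-null MEF, 507 in ES cells and 351 in MEF. There ES cells were again highest, but by 0.52 ± 0.20, so the size of the Itga9 difference depended on whether that probe was read.

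Of the subunits best known from leukocytes, 4 of 5 with a value exceeded MEF by 2-fold or more in ES cells. Over all gene labels with a value, 32.3% did so. Itgam had a value only because it was well above background in ES cells, and Itgax, not so marked on any array, had none. The count of 4 of 5 thus depends in part on the filter on dim probes. Itgb7, the partner of α4 and αE in lymphocyte homing to the gut, gave 316 units in p53-null MEF, 3630 in ES cells and 1014 in MEF. ES cells were thus highest and p53-null MEF lowest, with ES cells 3.56-fold above MEF (1.83 ± 0.20) and p53-null MEF 4.03-fold below (-2.01 ± 0.20, and -0.04 with spike-in scaling). Itgae, the αE chain that with β7 binds E-cadherin, gave 35.2 units in p53-null MEF, 355 in ES cells and 19.6 in MEF. It was high in ES cells alone, 18.0-fold above MEF (4.17 ± 0.31), but a second Itgae probe was not well above background on any array. Itgal, the α chain of LFA-1, gave 21.5 units in p53-null MEF, 96.8 in ES cells and 39.9 in MEF, a difference of 1.27 ± 0.24 in ES cells and -1.22 ± 0.35 in p53-null MEF (0.75 with spike-in scaling). Its second probe was detected in ES cells alone, at 197 units. Itgam, of the complement receptor on myeloid cells, was well above background in ES cells alone at 42.5 units, at least 3.41-fold above MEF. A second Itgam probe was not well above background on any array, with 7.03 units in ES cells. Their common partner Itgb2 was dim throughout, at 18.0 units in p53-null MEF (not well above background), 21.6 in ES cells and 35.1 in MEF.

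Leukocyte markers are given beside these subunits. Of 14 such genes on the array, 7 were well above background in p53-null MEF, 9 in ES cells and 11 in MEF, with summed signals of 1063, 2604 and 2768 units. In ES cells against MEF 3 were at least 2-fold higher and 5 lower of 13 with a value, with a median of -0.42, and against p53-null MEF 3 were higher and 2 lower of 9, with a median of 0.54. Ptprc, the CD45 gene that defines leukocytes, was not well above background in ES cells or MEF and gave 37.4 units in p53-null MEF. Laptm5, a lysosomal protein of blood cells, gave 619 units in ES cells alone. The part of such cells in the differences of these integrins was not tested.

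The laminin chains divided by type. The γ1 chain Lamc1, shared by most laminins, gave 23800 units in p53-null MEF, 19115 in ES cells and 17612 in MEF. It was nearly level after scaling, at 0.11 ± 0.20 in both p53-null MEF and ES cells against MEF. Lamb1 and Lamb2, alternative β chains, were both lowest in ES cells. Lamb1 gave 7831 units in p53-null MEF, 2514 in ES cells and 10885 in MEF, a difference of -2.12 ± 0.20 for ES cells. Lamb2 gave 3888 units in p53-null MEF, 653 in ES cells and 6793 in MEF, or -3.39 ± 0.20 for ES cells (10.5-fold) and -1.13 ± 0.20 for p53-null MEF (0.84 with spike-in scaling). The epithelial chain Lamb3 was detected in MEF alone, at 17.9 units, and Lamc3 in ES cells alone, at 12.7 units, both near the lowest well-marked signals.

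The laminin α chains, which carry the integrin-binding site, differed in opposite directions. Lama1, the α chain of the first embryonic basement membranes, gave 13.9 units in p53-null MEF (not well above background), 383 in ES cells and 16.6 in MEF. It was high in ES cells alone, 22.9-fold above MEF (4.52 ± 0.33), and a second probe was detected in ES cells alone. Lama5, the most widespread α chain, gave 3879 units in p53-null MEF, 4511 in ES cells and 3581 in MEF, and no difference between arrays reached 2-fold. Lama3, the chain of epithelial laminin 332, was dim, with 4.98 units in p53-null MEF (not well above background), 53.5 in ES cells and 18.7 in MEF, or 1.51 ± 0.29 in ES cells. Its other probe was not well above background on any array. Lama2, known from muscle and peripheral nerve, was spotted 10 times and measured 325 ± 8.11 units in p53-null MEF, 10.5 ± 2.18 in ES cells and 589 ± 31.0 in MEF. It was at least 57.7-fold lower in ES cells than in MEF, and lower in p53-null MEF by -1.18 ± 0.20 (0.79 with spike-in scaling) at this probe but by -0.31 ± 0.21 at a second. Lama4, known from vessels and mesenchyme, gave 1517 units in p53-null MEF, 33.7 in ES cells and 4313 in MEF. Its difference of -7.01 ± 0.23 in ES cells (129-fold) was the largest measured on both arrays among the members, and its 3 detected probes lay between -7.50 and -6.96 there and between -2.58 and -1.84 in p53-null MEF (0.14 for the brightest with spike-in scaling).

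Markers of cell types that make these chains are given beside them. Of 14 primitive and parietal endoderm markers, 10 were well above background on each array, with summed signals of 141548 units in p53-null MEF, 4825 in ES cells and 93516 in MEF. Most of each sum came from the collagen chaperone gene Serpinh1, with 131477, 3849 and 61161 units. Of 12 with a value, 3 were at least 2-fold higher and 7 lower in ES cells than in MEF. The 3 higher genes were Sox17, detected in ES cells alone at 56.8 units, Foxa2, with 293 units in ES cells and 64.5 in MEF, and Amn, with 210.2 and 56.2. The endoderm factor Gata4 was not well above background on any array. Of 8 endothelial markers, 5 were well above background in p53-null MEF, 6 in ES cells and 6 in MEF, with summed signals of 3161, 4295 and 1443 units. The part of such cells in the Lama1 and Lama4 differences was not tested.

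**Figure D4:**
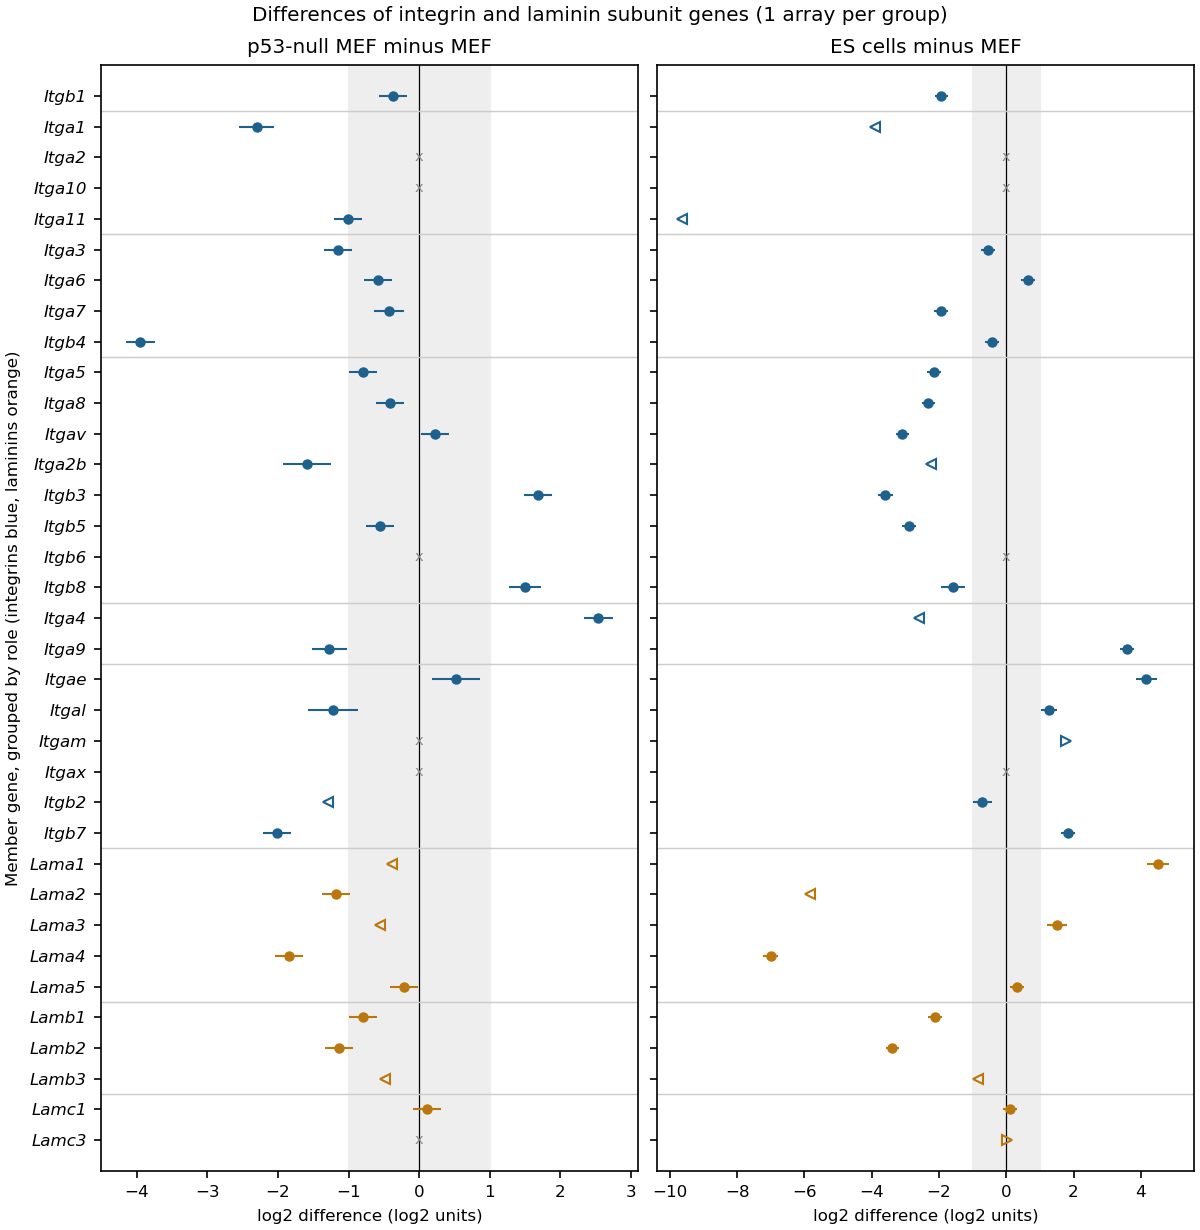
Log2 difference from MEF (x axes, log2 units, different ranges) of the probe standing for each gene, in p53-null MEF and in ES cells. Points carry the scanner's error model as bars, open triangles are bounds, x marks genes without a value, and the grey band spans differences under 2-fold. In p53-null MEF Itga4 (2.54) and Itgb4 (-3.95) lie farthest from 0. In ES cells these are Itga11 (-9.65, a bound), Lama4 (-7.01) and Lama2 (-5.85, a bound) below 0 and Lama1 (4.52) above it.

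Subunits were then paired. Of 23 textbook integrin pairs, both transcripts were well above background for 18 in MEF, 17 in p53-null MEF and 14 in ES cells. At the probe standing for each gene, ES cells lacked both collagen receptors detected in MEF (α1β1 and α11β1), both α4 pairs (α4β1 and α4β7) and αIIbβ3, all detected in MEF, and held αMβ2, which MEF did not. When any probe of a gene could count, an alternative chosen after seeing the data, α1β1 was detected in ES cells too, which made 15 pairs, and the other counts stayed. The mean of all probes and the median probe also gave 15 pairs in ES cells. The laminin receptors α3β1, α6β1, α6β4 and α7β1 were detected on all 3 arrays, as were αvβ1, αvβ3, αvβ5, αvβ8, α5β1, α8β1, α9β1 and αEβ7. Some pairs rest on dim probes. In ES cells αvβ8 rests on Itgb8 at 11.7 units, beside a lowest well-marked signal of 10.1. There αMβ2 rests on 1 of 2 Itgam probes and on Itgb2 at 21.6 units. In MEF αEβ7 rests on Itgae at 19.6 units, beside a lowest well-marked signal of 12.4. Of 13 textbook laminin trimers, every chain was detected for 10 in MEF, 6 in p53-null MEF and 10 in ES cells. The p53-null MEF lacked each trimer with the α1 or α3 chain, and ES cells those with α2. The α1 and α3 chains were dim in MEF, at 16.6 units for Lama1 and 18.7 for Lama3. The lowest well-marked signal was 12.4 units in MEF and 16.0 in p53-null MEF. The count of 6 beside 10 thus rests on probes near the detection limit. ES cell trimers with the γ3 chain rest on Lamc3 at 12.7 units, beside a lowest well-marked signal of 10.1. Co-detected transcripts show neither the protein nor its assembly.

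**Figure D5:**
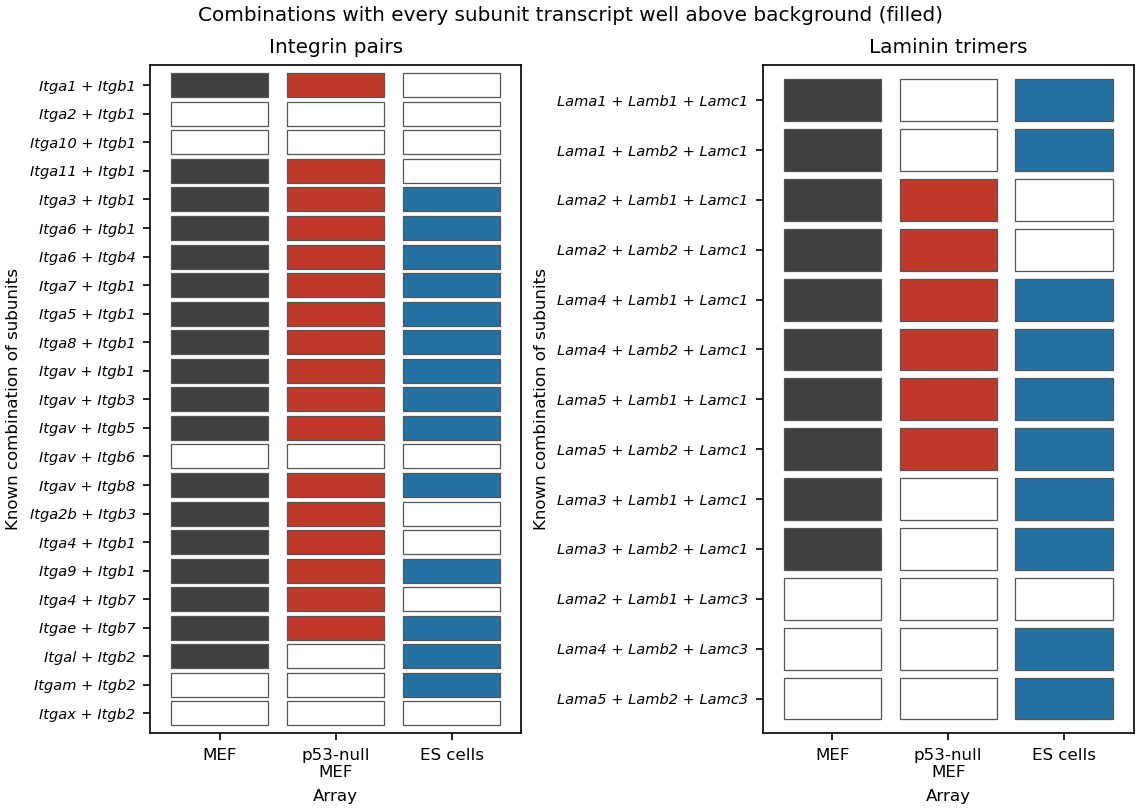
Textbook integrin pairs (left) and laminin trimers (right) in rows, arrays in columns. A filled cell means that every subunit transcript was well above background on that array, which held for 18 pairs in MEF, 17 in p53-null MEF and 14 in ES cells.

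Receptor and ligand transcripts were set side by side for 15 textbook pairs, as differences from MEF. For αE and its ligand E-cadherin both were higher in ES cells, at 4.17 for Itgae and at least 10.31 for Cdh1, which was not detected on either MEF array. For α6 and the laminin α1 chain the differences in ES cells were 0.65 and 4.52. For α11 and collagen I both were lower in ES cells, at -9.65 for Itga11 as a bound and -6.02 for Col1a1. For α5 and fibronectin they were -2.15 for Itga5 and -3.67 for Fn1 in ES cells, and -0.80 and -2.42 in p53-null MEF. For α7 and the laminin α2 chain the ES cell values were -1.94 and, as a bound, -5.85. Receptor and ligand had opposite signs, both by 2-fold or more, for α9 and tenascin C in ES cells, with 3.60 for Itga9 and -4.84 for Tnc. That holds at the Itga9 probe standing for the gene, while the probe that RefSeq ties to Itga9 gave 0.52, under 2-fold. In other pairs of opposite sign at least 1 side was under 2-fold. In ES cells these were Itgb4 at -0.43 with Lama3 at 1.51, and Itga3 at -0.54 with Lama5 at 0.32. In p53-null MEF they were Itga4 at 2.54 with Vcam1 at -0.67, Itga9 at -1.27 with Tnc at 0.20, Itga11 at -1.01 with Col1a1 at 0.03, and Itgav at 0.22 with its ligand osteopontin (Spp1) at -0.01. For αL and ICAM1 the values were 1.27 and 0.88 in ES cells and -1.22 and -2.13 in p53-null MEF. Vitronectin (Vtn), the ligand of αvβ5, was not well above background on any array.

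Other genes of the adhesion machinery were counted in 4 lists. Beside these counts, 27.8% of all gene labels with a value were at least 2-fold lower and 32.3% higher in ES cells against MEF. In p53-null MEF against MEF 16.8% were lower and 18.0% higher. Of cytoplasmic partners of integrins, 16 of 28 with a value lay at least 2-fold below MEF in ES cells and 1 above, with a median of -1.29. For p53-null MEF 7 of 26 were lower and none higher, and the median was -0.29. Lims2, an adaptor of the integrin-linked kinase complex, differed most in both, with 1385 units in p53-null MEF, 104 in ES cells and 4390 in MEF. Talin 1 (Tln1), which activates integrins by binding the β tail, gave 4897, 1725 and 10357 units in the same order, and Parva, of the same complex as Lims2, gave 2679, 236 and 5910.

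Of integrin ligands other than laminins, 22 of 27 lay at least 2-fold below MEF in ES cells and 3 above, with a median of -3.48. For p53-null MEF 10 of 24 were lower and none higher, and the median was -0.66. Col6a1, a microfibrillar collagen chain, gave 3470 units in p53-null MEF, 80.9 in ES cells and 16495 in MEF, and Fn1 gave 17063, 5770 and 72729. Of basement membrane genes other than these laminins, 9 of 14 were lower and 2 higher in ES cells, and 7 of 15 lower and none higher in p53-null MEF, with medians of -2.96 and -0.56. Col18a1, the source of endostatin, combined the largest difference of that list in p53-null MEF with an opposite one in ES cells, with 2102 units in p53-null MEF, 45126 in ES cells and 15333 in MEF. The collagen IV chain Col4a6 gave 407 units in p53-null MEF and 972 in MEF and was not well above background in ES cells. Of laminin receptors that are not integrins, 7 of 11 were lower and 2 higher in ES cells, and 4 of 11 lower and none higher in p53-null MEF, with medians of -2.75 and -0.83. The syndecan Sdc2 gave 8237 units in p53-null MEF, 376 in ES cells and 18103 in MEF. With spike-in scaling the p53-null counts of these lists turned to 19, 14, 8 and 7 genes higher, for cytoplasmic partners, ligands, basement membrane genes and non-integrin receptors, and 0, 0, 1 and 0 lower.

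Upstream sequence was available for 23 of the 35 genes as 26 windows of 250 bases before a transcript start (RefSeq, GRCm38.p6). The table held no window for Itga6, Itga7, Itgae, Itgal, Itgb2, Itgb3, Itgb4, Lama1, Lama3, Lama4, Lamc1 and Lamc3. Both strands were searched for the E-box CACCTG, the letters that Snail and ZEB repressors of epithelial genes bind, for the GC box GGGCGG, for the TATA box TATAAA, for the Oct octamer, and for the p53 half-site by its consensus. The E-box stood in 8 of 26 windows (30.8%) beside 17.2% of 32851 windows of all genes, and the GC box in 9 (34.6%) beside 32.7%. A TATA box or Oct octamer was in none, beside 12.4% and 1.60%. The p53 half-site was in 1 window, that of Itga9, beside 7.13% of all windows, and its letters overlap no E-box there. The median number of CpG dinucleotides was 10 in member windows and 6 in all.

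The windows of Itga9 and Itgb7, higher in ES cells, and of Itga11 and Lama2, lower there, are shown so that genes with opposite differences can be compared. Capitals mark E-boxes and, in Itga9 nearest the 5′ end, the p53 half-site. The positions are chr9:118711442-118711691 (plus strand) for Itga9, chr15:102231936-102232185 (minus) for Itgb7, chr9:62677605-62677854 (plus) for Itga11 and chr10:27616943-27617192 (minus) for Lama2.
Itga9 upstream: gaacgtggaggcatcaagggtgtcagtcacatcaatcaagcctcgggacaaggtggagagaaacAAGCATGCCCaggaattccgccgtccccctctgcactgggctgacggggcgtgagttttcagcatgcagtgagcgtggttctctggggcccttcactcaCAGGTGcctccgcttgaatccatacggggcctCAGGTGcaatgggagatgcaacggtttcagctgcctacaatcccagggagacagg
Itgb7 upstream: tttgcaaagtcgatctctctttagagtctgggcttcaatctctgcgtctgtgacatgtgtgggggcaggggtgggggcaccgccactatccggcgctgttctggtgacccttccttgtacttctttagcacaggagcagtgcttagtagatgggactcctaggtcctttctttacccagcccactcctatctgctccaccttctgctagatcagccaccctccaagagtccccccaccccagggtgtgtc
Itga11 upstream: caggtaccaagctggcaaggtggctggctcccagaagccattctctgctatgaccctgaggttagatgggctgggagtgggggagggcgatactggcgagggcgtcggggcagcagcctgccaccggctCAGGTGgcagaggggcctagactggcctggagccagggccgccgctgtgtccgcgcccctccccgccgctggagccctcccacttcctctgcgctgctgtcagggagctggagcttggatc
Lama2 upstream: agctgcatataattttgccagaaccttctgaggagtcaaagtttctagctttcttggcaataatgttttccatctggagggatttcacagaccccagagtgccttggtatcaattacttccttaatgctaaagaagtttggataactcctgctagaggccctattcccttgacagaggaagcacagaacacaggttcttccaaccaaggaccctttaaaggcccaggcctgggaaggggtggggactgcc
The E-box occurred in a gene higher in ES cells (Itga9) and in one lower there (Itga11), and in neither of the others. The number of CpG dinucleotides was 10 for Itga9, 5 for Itgb7, 12 for Itga11 and 0 for Lama2. These matches describe the letters in the windows, and nothing on binding was measured.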

How the data were processed

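Total RNA of 3 samples was hybridised to 1 array each. The deposited scanner files hold linear Cy3 intensity values per spot, which Agilent Feature Extraction (version 9.5.3.1, per the file headers) gave the authors. Its processed signal is background-subtracted and detrended within an array, with no normalization between arrays. The deposited value table of the series held the same intensities, with ratios to the processed signal of 0.995 to 1.005 and column medians of 51.8 (p53-null MEF), 50.0 (ES cells) and 43.2 (MEF), so neither a log scale nor a centring was applied to it.

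Here each array's log2 processed signals were centred on their 75th percentile over 43379 spots, controls excluded. Spots marked as uneven or outliers were left out (62, 176 and 192 in p53-null MEF, ES cells and MEF). Spots of a probe were averaged, and a probe counted as well above background if 50% or more of the spots kept were so marked (26198, 27954 and 26462 spots in all, none saturated). A gene was represented by its brightest probe on average over the arrays (log2). Probes carried the same gene name in all 3 files in 90.7% of cases and the others were left out, among them 4 probes named for a member in some files only. Lamb1 was also accepted under its older name. Positions are those of the p53-null MEF file (mm8). Exons and untranslated regions were not determined, for lack of a genome of that build in the references used, and proteins were not analysed here.

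Differences of at least 2-fold were counted without a test. The number of arrays limits the precision, and over the members the median error-model value of a difference was 0.20. Calculations used Python 3.11.15, numpy 2.4.6, pandas 2.3.3, and, for normexp and quantile normalization, R 4.3.3 with limma 3.58.1. The counting was tested on simulated data. Alternatives covered background correction, scaling, the filter on dim probes, the probe of a gene, marked spots, the value table and probe naming. All 35 members are accounted for, and of each other list up to 4 genes with the largest differences could be named, while Col1a1, Cdh1, Fn1, Tnc, Vcam1, Icam1, Spp1 and Vtn were named as ligands in a textbook list of 15 receptor and ligand pairs, written with the data in view. Markers named singly define a lineage or were picked after their values were seen (Ngfr, Krt14, Laptm5, Sox17, Foxa2, Amn, Serpinh1, Gp1bb, Gp1ba and Pf4). The members and lists were chosen with earlier results of these data known. Some items of the lists and trimers are not reported here.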

Additional observations from a re-analysis of the deposited data

How the results depend on the processing

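The processing was varied over 13 planned settings and 1 chosen after seeing the data (any probe of a gene). Of the recomputed counts and medians, 174 stayed near the reported value and 39 moved. A count stayed near if it was within a fixed factor, and a median if within the median error-model value. For single members, 824 differences moved by less than their error and 292 by more. A further 11, all at least 2-fold as reported, changed sign. Sign changes of smaller differences were not counted as such. Members lower by 2-fold or more in p53-null MEF against MEF numbered 5 with normexp, 5 without scaling and 1 with spike-in scaling, which gave 14 higher. Members higher in that comparison numbered 1 with the mean of all probes and 1 with the median probe. The median there was -0.26 without scaling, 1.17 with spike-ins and -0.80 over measured differences alone. In ES cells against MEF the median was -0.53 with normexp, -1.98 with median scaling, -1.31 with spike-ins, -0.82 without the filter and -0.71 over measured differences alone. In ES cells against p53-null MEF it was -0.18 with normexp, -0.99 with quantile normalization, -1.58 with median scaling, -0.94 with the percentile over probes detected on all arrays, -1.64 without scaling, -3.03 with spike-ins, -0.34 without the filter and -0.66 with the mean of all probes, and spike-ins left 5 members higher.

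For the 4 lists in p53-null MEF against MEF, spike-ins gave 19 cytoplasmic partners higher and 0 lower, 8 basement membrane genes higher and 1 lower, 7 non-integrin receptors higher and 0 lower, and 14 ligands higher and 0 lower. Normexp left 4 basement membrane genes lower there and 0 cytoplasmic partners higher in ES cells against MEF. The mean of all probes gave 1 non-integrin receptor higher. In ES cells, spike-ins gave 5 ligands higher against MEF, and against p53-null MEF 0 cytoplasmic partners higher and 24 lower, and 1 basement membrane gene higher and 13 lower. The cause of these moves was not tested beyond the shift of all labels.

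Spike-in scaling moved the median of all labels by 2.05 in p53-null MEF against MEF, by 0.26 in ES cells against MEF and by -1.80 in ES cells against p53-null MEF. The share of higher among all calls of at least 2-fold, 51.7% for p53-null MEF against MEF, was 70.6% without scaling and 98.0% with spike-ins, and for ES cells against p53-null MEF it went from 52.1% to 40.2% and 9.44%. Relative to all labels, the median of the members in p53-null MEF against MEF was -0.60 as reported and -0.90 with spike-ins. No scaling moved the median of all labels by 0.34 and -0.32 in the comparisons with p53-null MEF, median scaling by -0.20 and -0.26 in those with ES cells, and leaving out the filter by -0.35 in each of the latter. Among differences of 2-fold or more as reported, those that changed sign with spike-ins are listed here. In p53-null MEF against MEF they were Itga2b 0.38, Itga3 0.83, Itga9 0.70, Itga11 0.96, Itgal 0.75, Lama2 0.79, Lama4 0.14 and Lamb2 0.84. In ES cells against p53-null MEF it was Itga6 -0.46. Smaller differences are not listed, and some of these also changed sign over the settings. In p53-null MEF against MEF, Itgb1 went from -0.37 to as high as 1.60, and Lamb1 from -0.80 to 1.17. With quantile normalization Itgb3 changed to 0.50 in ES cells against MEF and 0.28 against p53-null MEF, where its other probe stood for the gene. Normexp keeps an offset of 50 units on every signal, so differences of dim probes shrink by construction. No paired analysis was possible because each group has 1 array. Values of probes near the lowest well-marked signals, such as Lamb3, Lamc3 and Itgb2, are limited by background.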
